A study of Rattus norvegicus with 65 samples.

Results

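The genes described here encode matrix metalloproteinases (Mmp), the membrane-anchored Adam proteases, the secreted Adamts proteases, the Adamts-like proteins and the tissue inhibitors of metalloproteinases (Timp). A gene was a member when its rat symbol was Mmp, Adam, Adamts or Adamtsl followed by a number, or Timp1 to Timp4. The count table held 55 such genes among 14554, namely 13 Mmp, 16 Adam, 18 Adamts, 4 Adamtsl and all 4 Timp genes. The rat annotation lists 80 such symbols, and the other 25, among them the collagenase genes Mmp8 and Mmp13 and the stromelysin gene Mmp10, have no row in the table analysed here. These enzymes hold a zinc ion in the active site and most are made as inactive precursors. Mmps cut collagens, gelatin and other matrix proteins, Adams mainly release the outer parts of membrane proteins such as growth factors and cytokines, and Adamts enzymes cut proteoglycans, procollagens and other matrix glycoproteins, while Timps bind and block them. In the heart these genes are known for the turnover of the matrix between muscle cells, and cardiac fibroblasts are a major source of many of them.

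The cells were cardiomyocytes, the muscle cells of the heart, cultured from newborn rats, and polyA RNA was sequenced after 6 or 24 hours with 10 mM 5FU (5-fluorouracil), 2.5 mM Ace (acetaminophen), 1.25 μM Dox (doxorubicin) or DMSO alone. DMSO1 was the control of 5FU, and DMSO2, with a lower share of DMSO, was the control of both Ace and Dox. At 6 hours there were 6 libraries of DMSO1, 5FU and Ace and 7 of DMSO2 and Dox, and at 24 hours 6 of DMSO1 and 5FU and 7 of DMSO2, Ace and Dox, or 65 in 10 groups. The strain and sex of the pups are not given in the sources used here. All cultures were plated from a single mixture of cells from several litters and were deprived of serum overnight before treatment, so p-values measure the spread between parallel cultures and not between animals.

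Library totals ran from 14332827 to 25738297 estimated counts, and 45 members had at least 10 counts in every library. Levels are CPM, the count of a gene per fixed library total after TMM scaling, given as the median of a group with its lowest and highest library in parentheses, and are compared between groups only and never between genes. Effects are log2 fold changes ± SE from edgeR's quasi-likelihood fit of all 10 groups, and a gene is said to have risen or fallen when its FDR was below 0.01. Of the cardiomyocyte markers 12 of 12 were measured, with a summed level of 27140 to 83940 CPM over all groups, and none of them was absent. Markers of other cell types were measured too, 11 of 11 fibroblast markers with a summed level of 1948 to 19970 CPM, 8 of 8 smooth muscle and pericyte markers with 446 to 4528 CPM, 9 of 10 endothelial markers with 27.4 to 387 CPM and 11 of 12 macrophage markers with 34.6 to 87.9 CPM. The endothelial marker Pecam1 and the macrophage marker Itgam have no row in the table, and of 6 neutrophil markers only Csf3r has one. In 5 libraries the profile over all genes correlated less with the rest of the group than elsewhere, namely library 1 of 5FU at 6 hours, library 3 of DMSO1 at 6 hours, library 1 of DMSO1 at 24 hours and library 7 of Dox at each time. Library numbers are labels in the order of the columns.

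RefSeq promoter sequences were found for 39 of the 55 members, and the 250 bases before the start were searched on both strands for the AP-1 site TGANTCA, the motif bound by Fos and Jun proteins that is known from the promoters of several Mmp genes. It occurred in 3 of 39 members (7.69%), against 4.55% of the 12818 promoters of genes of the count table and 6.34% of all 33469 promoters. Members were counted as genes and the others as promoters. A gene can have several promoters, as Adamts13 and Adamts17 did, so the member share is not in the same unit as the others. The 3 are shown because they are the members with the motif, and Adam8 is shown because it had the largest change of all members; the AP-1 site is in capitals. The assembly is GRCr8, the strand is that of the gene, and each window ends at the base before the start.
Mmp3, chr8:12925031-12925280, plus strand: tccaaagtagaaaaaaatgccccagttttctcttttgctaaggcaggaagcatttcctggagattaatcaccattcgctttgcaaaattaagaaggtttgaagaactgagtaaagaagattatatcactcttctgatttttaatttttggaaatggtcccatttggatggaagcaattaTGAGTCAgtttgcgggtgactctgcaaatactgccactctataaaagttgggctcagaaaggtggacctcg
Mmp12, chr8:12866402-12866651, plus strand: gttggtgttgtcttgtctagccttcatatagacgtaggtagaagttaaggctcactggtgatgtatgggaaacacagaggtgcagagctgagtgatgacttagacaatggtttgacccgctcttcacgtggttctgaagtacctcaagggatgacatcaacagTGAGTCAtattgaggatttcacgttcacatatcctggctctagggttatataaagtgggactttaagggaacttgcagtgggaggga
Adam19, chr10:30992511-30992760, plus strand: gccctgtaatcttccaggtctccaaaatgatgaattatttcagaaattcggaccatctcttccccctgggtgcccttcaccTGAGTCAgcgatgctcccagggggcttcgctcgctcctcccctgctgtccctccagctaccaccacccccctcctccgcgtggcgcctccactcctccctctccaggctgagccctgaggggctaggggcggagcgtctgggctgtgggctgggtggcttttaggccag
Adam8, chr1:204218323-204218572, minus strand: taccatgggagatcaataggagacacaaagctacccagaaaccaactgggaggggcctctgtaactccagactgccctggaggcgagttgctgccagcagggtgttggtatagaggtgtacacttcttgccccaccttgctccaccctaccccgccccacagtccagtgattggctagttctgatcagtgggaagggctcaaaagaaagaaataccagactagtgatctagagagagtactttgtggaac
The site began 71 bases before the start in Mmp3, 87 in Mmp12 and 169 in Adam19, and the letters are not in this window of Adam8. Mmp3 and Mmp12 are neighbours on the chromosome. A match is a description of the sequence and not of binding.

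At 24 hours most members that changed were lower in the treated cells, with each of the 3 drugs. With 5FU 3 members rose and 33 fell, and the median log2 fold change over all 55 was -0.44, against -0.0094 over all 14554 genes. With Ace 3 rose and 27 fell (median -0.41, all genes -0.0008). With Dox 17 rose and 31 fell (median -0.70, all genes 0.0028). The members that fell made up 60% with 5FU, 49.1% with Ace and 56.4% with Dox, while of all genes tested 27.8% fell with 5FU, 19.1% with Ace and 41% with Dox. The members that rose made up 5.45%, 5.45% and 30.9% in the same order, and the shares of all genes that rose were 28%, 18.2% and 40.4%.

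At 6 hours the split was more even. With 5FU 11 members rose (20%, all genes 23.4%) and 18 fell (32.7%, all genes 24.5%), with a median of -0.13. With Ace 4 rose (7.27%, all genes 16.5%) and 15 fell (27.3%, all genes 15.2%), with a median of -0.17. With Dox 16 rose (29.1%, all genes 31.5%) and 21 fell (38.2%, all genes 32.7%), with a median of -0.052. The Dox shares at 6 hours were near those of all genes. Without the 5 libraries named above the counts of members that rose and fell were 4 and 35 with 5FU, 5 and 30 with Ace and 16 and 32 with Dox at 24 hours, and 11 and 18, 5 and 17, and 17 and 22 at 6 hours. Called only without those libraries were Adam10, Adamts19 and Mmp19 with 5FU, Adam9, Adam19, Adamts8, Adamts15 and Adamts20 with Ace and Adamts7 with Dox at 24 hours, and Adamts19, Adamts20 and Adamtsl5 with 5FU, Adam10, Adamts10 and Adamtsl5 with Ace and Adam1a, Adamts2 and Mmp23 with Dox at 6 hours. Lost without them were the calls of Adam22, Adamts7 and Adamtsl3 with 5FU at 6 hours and of Adam30 with Dox at both times. The 5 libraries were not of Ace or DMSO2, so Ace calls changed through the fit shared by all groups. Adam19 with Ace at 24 hours, for example, had an effect of -0.29 (FDR 0.01) with them and -0.28 (FDR 0.0023) without. The counts of members that rose and fell include Adam32 and Adamts16, which reached 10 counts only in the groups where they were high. Ace and Dox share the control DMSO2, so their effects are not independent of each other.

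**Figure D1:**
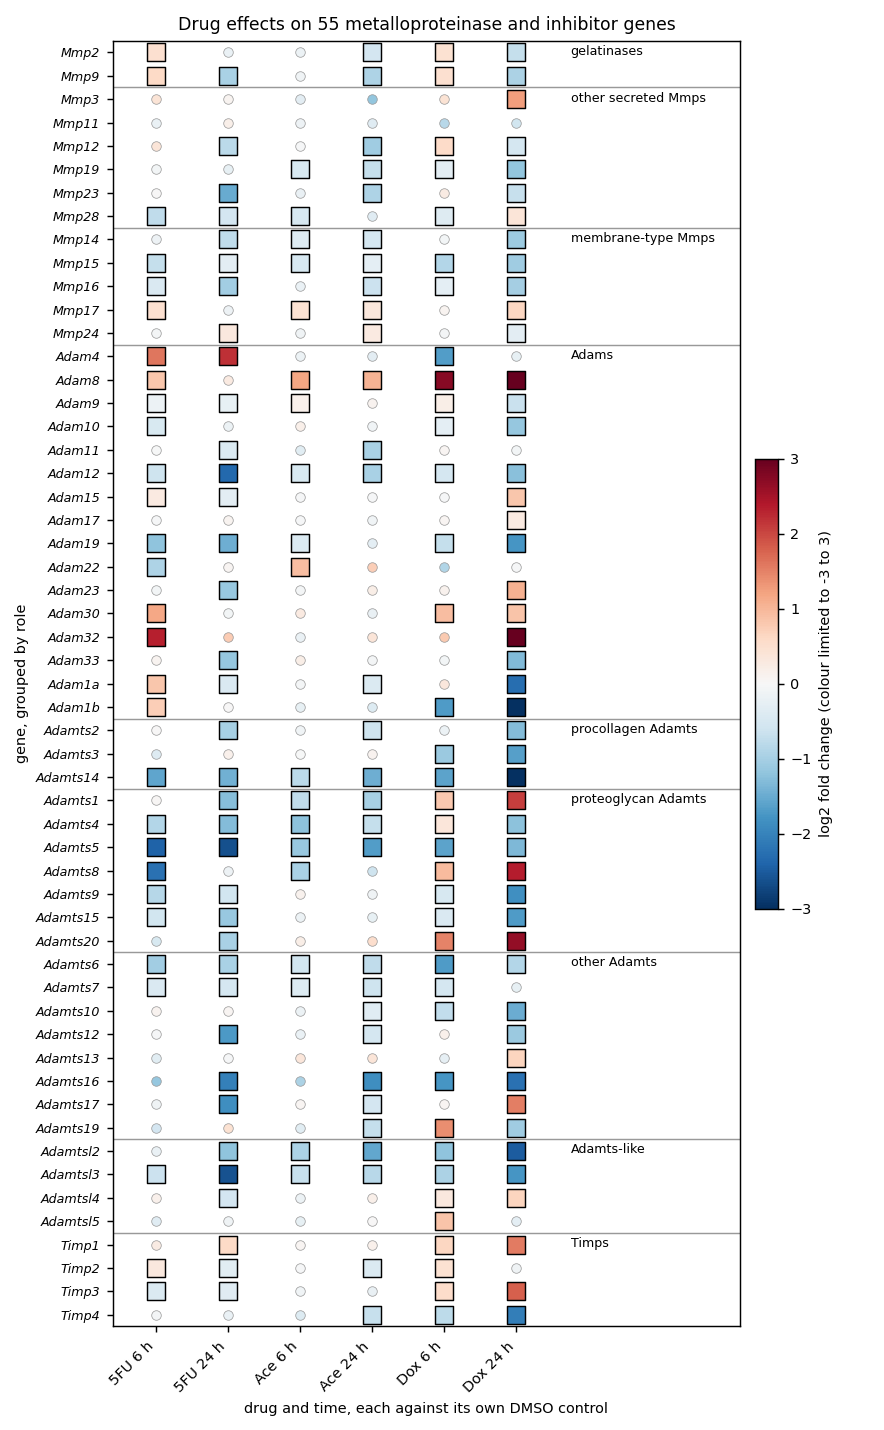
Log2 fold change of each of the 55 members (rows, grouped by role) for each drug and time against its own DMSO control (columns). Colour gives the log2 fold change, limited to -3 to 3, squares mark an FDR below 0.01 and small circles the other values; at 24 hours blue squares outnumber red ones with each drug (33 against 3, 27 against 3 and 31 against 17).

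The markers of other cell types moved in the same comparisons, and their part in the results was not tested. In bulk RNA fewer cells of a type and less RNA per cell cannot be told apart. All 11 fibroblast markers fell with 5FU and with Dox at 24 hours and 10 of 11 with Ace. The summed level at 24 hours was 10020 to 19970 CPM (median 16310) in DMSO1, with library 1 the lowest, and 5203 to 5875 CPM (median 5675) with 5FU, so that the groups did not overlap. In DMSO2 it was 15180 to 18980 CPM (median 16680), with Ace 7311 to 9338 CPM (median 7903) and with Dox 1948 to 4102 CPM (median 3541), again without overlap with the control. At 6 hours it was 6549 to 10970 CPM in DMSO1 and 6447 to 10810 CPM with 5FU, which overlapped throughout, and 9745 to 14520 CPM in DMSO2, 7379 to 11010 CPM with Ace and 7813 to 10240 CPM with Dox. There 3 of the 11 fibroblast markers fell with 5FU, 8 with Ace and 7 with Dox, and none rose. Of the 9 endothelial markers 7 fell with 5FU, 6 with Ace and 9 with Dox at 24 hours, and of the 11 macrophage markers 3, 7 and 9 fell, while 1 rose with 5FU and 1, Cd14, with Dox. Of the 8 smooth muscle and pericyte markers 6 fell and 2 rose with 5FU at 24 hours (median sum 707.6 CPM against 1194 CPM in DMSO1), 6 fell with Ace (874 CPM against 1241 CPM in DMSO2), and 4 fell and 3 rose with Dox (445.5 to 1733 CPM, with library 7 the lowest, overlapping with DMSO2). The cardiomyocyte markers had a median sum of 30900 CPM with Dox at 24 hours against 51790 CPM in DMSO2, and 9 of 12 fell and 1 rose. With 5FU their median sum was 36040 CPM against 47110 CPM in DMSO1, and 7 fell and 2 rose, and with Ace 4 fell and 2 rose. With Dox at 6 hours all 9 endothelial markers fell (91.1 to 145 CPM against 264 to 327 CPM in DMSO2). In the same cultures 7 of 12 cardiomyocyte markers rose and 3 fell (median sum 66760 CPM against 52170 CPM), 5 of 8 smooth muscle and pericyte markers rose and 2 fell, and 5 of 11 macrophage markers rose and 1 fell.

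The Timp genes did not move together. Timp1 (Entrez 116510) and Timp3 (Entrez 25358) rose with Dox, Timp4 (Entrez 680130) fell with Dox and Ace, and Timp2 (Entrez 29543) fell with 5FU and Ace at 24 hours. Timp3, the inhibitor that stays bound to the matrix and also blocks several Adam and Adamts proteases, had a median of 58.02 CPM (52.7 to 62.9) in DMSO2 at 24 hours, a median of 49.9 CPM (46.2 to 56.7) with Ace and a median of 208 CPM (174 to 232) with Dox. All 7 Dox libraries lay above every other library of the series (1.80 ± 0.091, FDR 1.9e-27). At 6 hours it had a median of 36.5 CPM (32.1 to 37.9) in DMSO2 and a median of 50.6 CPM (43.8 to 62.8) with Dox, which did not overlap either (0.54 ± 0.093, FDR 6.6e-07). With 5FU it fell at both times, from a median of 52.5 CPM (47.3 to 57.8) to a median of 41.01 CPM (37.1 to 44.2) at 24 hours (-0.36 ± 0.10, FDR 0.0013) and by 0.42 on the log2 scale at 6 hours, where DMSO1 had a median of 49.2 CPM (30.8 to 60.5) and 5FU a median of 36.2 CPM (27.2 to 41.9), with overlap.

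Timp1, a secreted inhibitor of most Mmps, fell in the controls between 6 and 24 hours, from a median of 78.6 CPM (66.5 to 93.8) to a median of 29.1 CPM (25.2 to 34.7) in DMSO2 and from a median of 93.3 CPM (77.1 to 106) to a median of 29.9 CPM (27.3 to 37.2) in DMSO1. With Dox at 24 hours it stood at a median of 88.3 CPM (64.7 to 106), with an effect of 1.57 ± 0.092, FDR 2.9e-24. With 5FU at 24 hours it stood at a median of 45.6 CPM (39.4 to 57.3), with an effect of 0.60 ± 0.10, FDR 3.9e-07. Neither drug group overlapped with its control. With Ace at 24 hours it stood at a median of 30.5 CPM (28.7 to 39.2), which overlapped with the control, with an effect of 0.16 that did not pass the test. Timp1 also rose with Dox at 6 hours (0.64 ± 0.087, FDR 2.4e-09).

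Timp2, an inhibitor that also takes part in the activation of pro-Mmp2 by Mmp14, rose with Dox at 6 hours from a median of 188 CPM (180.2 to 225) to a median of 281 CPM (221 to 305), with an effect of 0.46 ± 0.080, FDR 9.8e-07, and the groups overlapped. After 24 hours it had a median of 249 CPM (210.4 to 305) in DMSO2 and a median of 187 CPM (164 to 201) with Ace, which did not overlap (-0.44 ± 0.080, FDR 5.3e-06), while the effect of Dox was -0.13 and did not pass the test. With 5FU it rose at 6 hours (0.31 ± 0.086, FDR 0.0019) and fell at 24 hours (-0.34 ± 0.086, FDR 0.00051). The rise at 6 hours lost its call without library 2 of DMSO1 (effects of 0.26 to 0.33 over the fits that each left out 1 library). Timp4, the inhibitor known for its high level in the heart, had a median of 4.73 CPM (4.39 to 6.32) in DMSO2 at 24 hours, a median of 3.29 CPM (2.40 to 3.85) with Ace and a median of 1.21 CPM (0.808 to 1.75) with Dox. The 3 groups lay apart in that order, with effects of -0.69 ± 0.18, FDR 0.00076 for Ace and -2.07 ± 0.20, FDR 8.4e-15 for Dox.

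**Figure D2:**
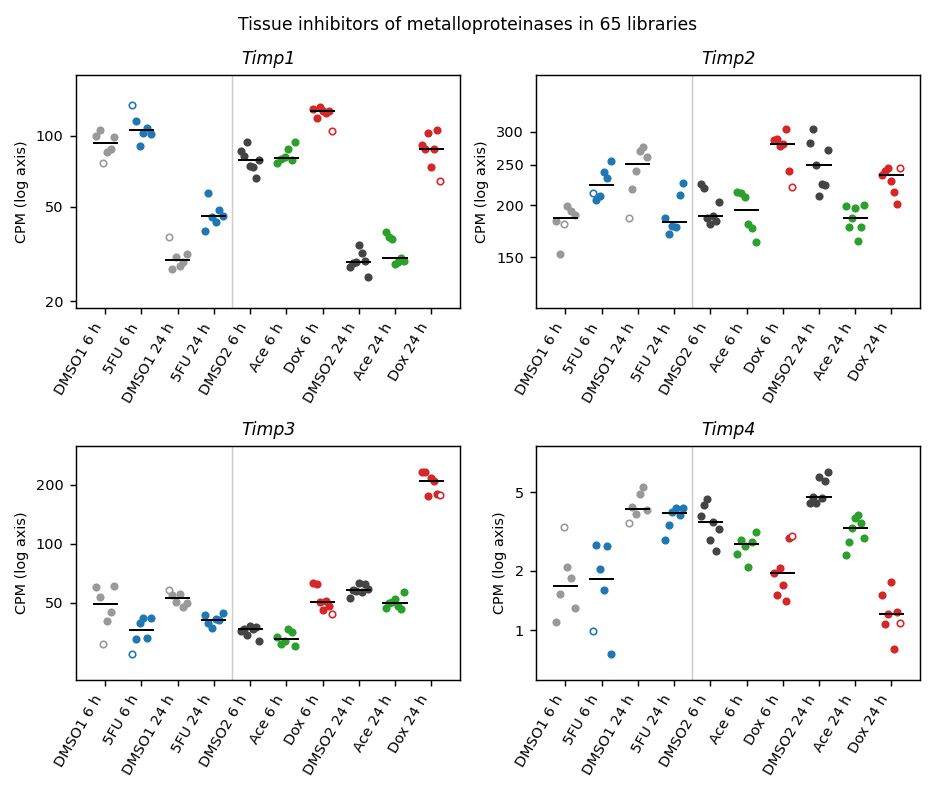
CPM (log axis) of the 4 Timp genes in each library of the 10 groups, with a bar at the group median and open circles for the 5 libraries that correlate least with their group. Timp3 with Dox at 24 hours (174 to 232 CPM) lies above every other library, and Timp4 with Dox at 24 hours (0.808 to 1.75 CPM) lies below its control.

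Both gelatinase genes rose with 5FU and Dox at 6 hours, and at 24 hours Mmp2 fell with Ace and Dox and Mmp9 with all 3 drugs. Mmp2 (Entrez 81686), gelatinase A, rose in the controls over time, from a median of 292 CPM (252 to 337) to a median of 712 CPM (681 to 775) in DMSO2. With Dox it had a median of 408 CPM (330.5 to 497) at 6 hours and a median of 462 CPM (298 to 479) at 24 hours, so that it was higher but overlapping with the control at 6 hours (0.47 ± 0.091, FDR 6.9e-06) and below all of it at 24 hours (-0.72 ± 0.091, FDR 1e-10). With Ace it had a median of 495 CPM (386 to 536) at 24 hours (-0.56 ± 0.090, FDR 5.5e-07). With 5FU it rose at 6 hours, from a median of 247 CPM (193 to 276) to a median of 337 CPM (269 to 409), with an effect of 0.47 ± 0.098, FDR 3.5e-05, and at 24 hours the effect of -0.19 did not pass the test.

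Mmp9 (Entrez 81687), gelatinase B, rose and then fell with 5FU and with Dox. At 6 hours it had a median of 15.8 CPM (13.2 to 18.5) in DMSO1 and a median of 23.8 CPM (22.3 to 28.8) with 5FU, without overlap (0.61 ± 0.11, FDR 2e-06). At 24 hours it had a median of 10.9 CPM (8.95 to 12.6) in DMSO1 and a median of 5.47 CPM (4.69 to 6.40) with 5FU, without overlap in the other direction (-0.97 ± 0.12, FDR 4.3e-10). With Dox the effects were 0.48 ± 0.097, FDR 1.7e-05 at 6 hours and -0.95 ± 0.11, FDR 4.3e-12 at 24 hours, where the group had a median of 7.18 CPM (5.96 to 9.35) against a median of 14.97 CPM (12.1 to 17.4) in DMSO2. With Ace it did not pass the test at 6 hours (-0.14) and fell at 24 hours (-0.92 ± 0.11, FDR 7.7e-11). The change of the effect between the times passed the test with each drug, at -1.58 ± 0.16, FDR 3.1e-12 for 5FU, -0.78 ± 0.15, FDR 5.9e-05 for Ace and -1.42 ± 0.14, FDR 2.2e-13 for Dox.

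Among the other secreted Mmps 3 of 6 fell with each drug at 24 hours, Mmp12 and Mmp23 with all of them. Mmp12, macrophage elastase, whose promoter holds the AP-1 site shown above, fell at 24 hours with 5FU (-0.82 ± 0.15, FDR 3.1e-06), Ace (-1.07 ± 0.14, FDR 2.1e-09) and Dox (-0.54 ± 0.14, FDR 0.00025), and had risen with Dox at 6 hours (0.57 ± 0.13, FDR 6.7e-05). Macrophage markers had a summed median of 42.9 CPM with Dox at 24 hours and 61.6 CPM with Ace against 80.7 CPM in DMSO2, and of 72.4 CPM with 5FU against 81.0 CPM in DMSO1. With Dox at 6 hours, where Mmp12 rose, 5 of the 11 macrophage markers rose and 1 fell, and their sum was 62.2 to 72.3 CPM against 47.6 to 60.6 CPM in DMSO2, without overlap. The part of these markers in the Mmp12 values was not tested. Mmp23, a membrane-bound Mmp that is shed from the cell, fell with 5FU from a median of 29.7 CPM (19.3 to 31.9) to a median of 10.03 CPM (9.33 to 10.5) at 24 hours (-1.51 ± 0.12, FDR 1.2e-17), with no overlap. It fell by less with Ace (-0.93, difference from the 5FU effect 0.59 ± 0.16, FDR 0.0013) and Dox (-0.70, difference 0.81 ± 0.15, FDR 4.2e-06). Mmp19 fell with Ace and Dox at both times, most with Dox at 24 hours (-1.18 ± 0.083, FDR 1.2e-20), and its effects with 5FU were -0.087 and -0.24, neither of which passed.

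Mmp28, epilysin, fell with 5FU at both times and with Ace at 6 hours, and rose with Dox at 24 hours (0.39 ± 0.12, FDR 0.0021) after falling at 6 hours (-0.38 ± 0.12, FDR 0.0042). The fall with Dox at 6 hours lost its call without library 6 of DMSO2 and without library 5 of Dox (effects of -0.42 to -0.34 over all such fits), and under the DESeq2 test. Mmp3, stromelysin-1, was at the edge of detection at 24 hours, with 1 to 8 counts in a DMSO2 library and 5 to 14 counts with Dox, and rose there with overlapping libraries (1.26 ± 0.39, FDR 0.0023). Its levels in the controls had been higher at 6 hours, at a median of 1.07 CPM (0.680 to 1.40) in DMSO2. Mmp11, stromelysin-3, was the only member called in none of the 6 drug comparisons, with effects from -0.84 with Dox at 6 hours to 0.17 with 5FU at 24 hours. It varied widely between cultures of the same group, for example with a median of 4.94 CPM (0.970 to 9.58) in DMSO2 at 24 hours.

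Of the 5 membrane-type Mmps, Mmp14, Mmp15 and Mmp16 fell with each drug at 24 hours, and Mmp17 and Mmp24 rose with some drugs. Mmp14 (Entrez 81707), MT1-MMP, which cuts collagen at the cell surface and activates pro-Mmp2, had a median of 479 CPM (432 to 520.3) in DMSO2 at 24 hours, a median of 331 CPM (263 to 389) with Ace and a median of 227 CPM (196 to 246) with Dox. Both drug groups lay below the control, with effects of -0.54 ± 0.099, FDR 6.6e-06 and -1.09 ± 0.10, FDR 1.7e-15. With 5FU it fell from a median of 449 CPM (398 to 524) to a median of 267 CPM (244 to 296), with an effect of -0.75 ± 0.11, FDR 1.1e-08, also without overlap. At 6 hours only the effect of Ace passed (-0.42 ± 0.10, FDR 0.00079), and those of 5FU and Dox were -0.16 and -0.079.

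Mmp15, MT2-MMP, fell in all 6 drug comparisons, with effects from -0.28 with Ace to -1.07 with Dox at 24 hours. The call for Ace at 24 hours was lost without library 1 or library 3 of Ace (effects of -0.31 to -0.25 over all such fits). Mmp16, MT3-MMP, fell in 5 of the 6, with the largest effects at 24 hours with 5FU (-1.03) and Dox (-1.02). Its call with Dox at 6 hours was lost in 3 of 14 such fits (effects of -0.36 to -0.26). In contrast Mmp17 (Entrez 288626), a membrane-type Mmp held by a lipid anchor, rose with Ace at 6 hours from a median of 15.8 CPM (14.1 to 16.9) to a median of 22.02 CPM (18.4 to 23.8), with an effect of 0.46 ± 0.069, FDR 1.4e-07. It also rose with 5FU at 6 hours, from a median of 14.45 CPM (12.8 to 18.02) in DMSO1 to a median of 21.49 CPM (17.17 to 22.34), with overlap. After 24 hours it had a median of 19.4 CPM (15.7 to 20.2) in DMSO2, a median of 23.6 CPM (21.2 to 26.7) with Ace and a median of 29.3 CPM (27.1 to 31.2) with Dox, each apart from the one before (0.33 ± 0.066, FDR 2.3e-05 and 0.65 ± 0.066, FDR 7.5e-14). Mmp24 (Entrez 83513), MT5-MMP, made small moves at 24 hours that differed in sign between the drugs, with 0.33 ± 0.078, FDR 0.00022 for 5FU, 0.26 ± 0.072, FDR 0.0021 for Ace and -0.31 ± 0.074, FDR 0.00013 for Dox. It had a median of 14.3 CPM (11.1 to 15.8) in DMSO1 and a median of 17.6 CPM (15.7 to 19.3) with 5FU, and the groups overlapped.

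Adam8 (Entrez 499285), a surface protease best known from white blood cells, had the largest change of any member. Its 24-hour levels were a median of 1.11 CPM (0.638 to 1.45) in DMSO2, a median of 2.08 CPM (1.57 to 2.91) with Ace and a median of 53.2 CPM (36.05 to 70.8) with Dox, which is 12 to 28 counts in a control library and 615 to 1357 counts in a Dox library. The Dox libraries lay above all others of the series, with an effect of 5.60 ± 0.17, FDR 5.3e-40, or a 48.6-fold rise. At 6 hours it had a median of 0.693 CPM (0.438 to 0.934) in DMSO2 and a median of 4.62 CPM (3.73 to 5.87) with Dox (2.74 ± 0.19, FDR 2.6e-20). It also rose with Ace, with effects of 1.18 at 6 hours and 1.05 at 24 hours, and with 5FU at 6 hours (0.83), while the effect of 5FU at 24 hours was 0.26 and did not pass. The 1 neutrophil marker in the table, Csf3r, did not pass the test in any drug comparison and counted 3.36 to 5.18 CPM in DMSO2 and 3.05 to 4.84 CPM with Dox at 24 hours, and 9 of 11 macrophage markers fell in those Dox cultures while 1, Cd14, rose (0.66). With Dox at 6 hours 5 of the 11 rose and 1 fell, with the sums given for Mmp12 above, and their part in the Adam8 values was not tested.

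Adam10 (Entrez 29650) and Adam17 (Entrez 57027), the main sheddases of Notch receptors and of tumour necrosis factor and EGF receptor ligands respectively, went in different directions with Dox at 24 hours. Adam10 had a median of 159 CPM (155 to 161) in DMSO2 at 24 hours and a median of 71.2 CPM (63.5 to 84.05) with Dox, without overlap (-1.15 ± 0.064, FDR 1.9e-25). It also fell with Dox at 6 hours (-0.30 ± 0.064, FDR 2.5e-05) and with 5FU at 6 hours, from a median of 83.03 CPM (79.4 to 114) to a median of 63.2 CPM (55.9 to 70.3), with an effect of -0.49 ± 0.069, FDR 1.3e-08. With Ace its effects were 0.17 and -0.11, neither of which passed. Adam17 was called in 1 of the 6 drug comparisons, a rise with Dox at 24 hours from a median of 63.6 CPM (61.2 to 68.1) to a median of 75.6 CPM (72.2 to 82.2), with an effect of 0.26 ± 0.037, FDR 3.4e-09. The other 5 effects lay between -0.10 and 0.072. Adam9 (Entrez 290834), another sheddase, moved in different directions by time with Dox, from a median of 61.02 CPM (55.4 to 66.8) to a median of 70.4 CPM (64.99 to 74.5) at 6 hours (0.20 ± 0.042, FDR 1.9e-05) and from a median of 81.2 CPM (76.4 to 83.4) to a median of 50.96 CPM (47.9 to 54.6) at 24 hours (-0.66 ± 0.042, FDR 1.3e-22). Its small rise with Ace at 6 hours (0.15 ± 0.043, FDR 0.0034) lost its call without library 4 of Ace and without library 7 of DMSO2 (effects of 0.13 to 0.17 over all such fits).

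**Figure D3:**
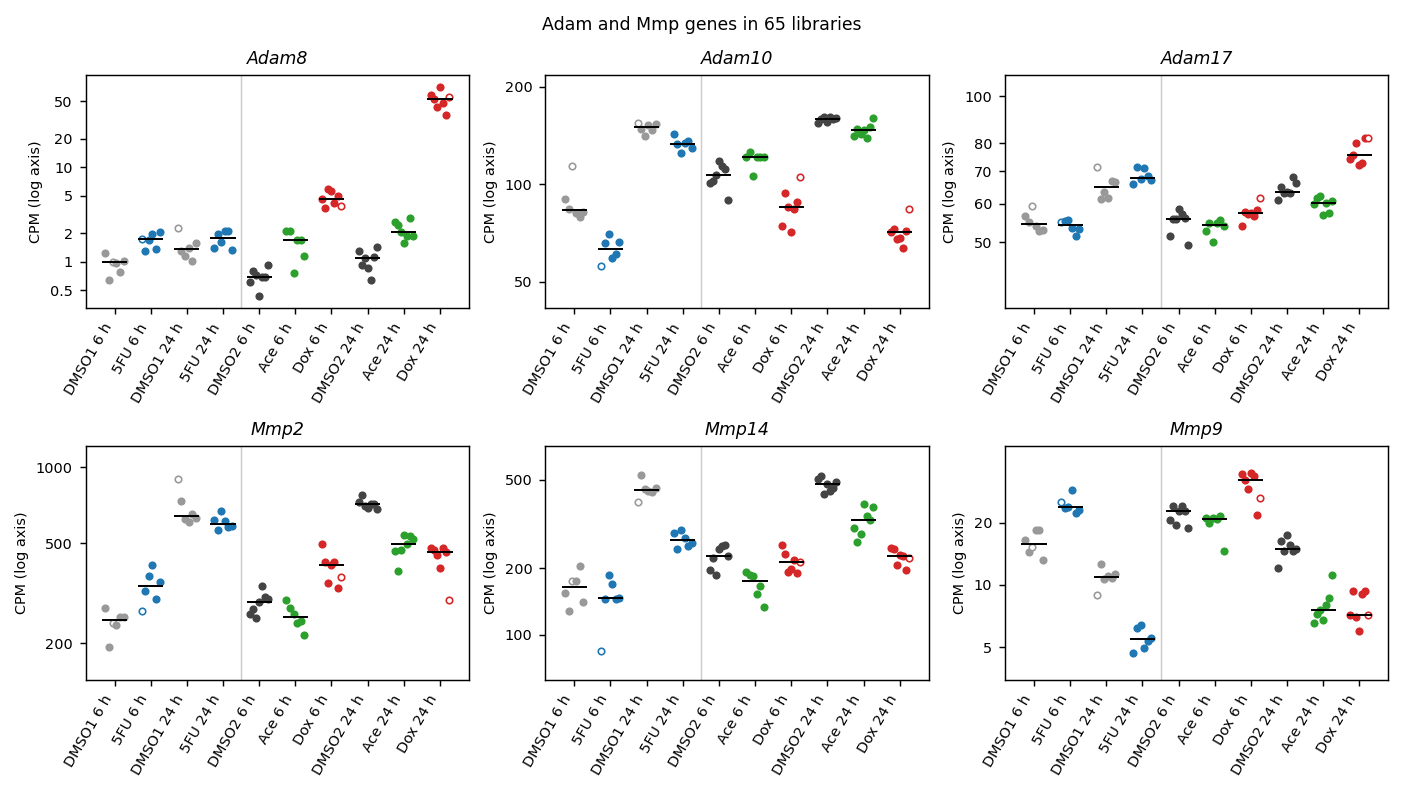
CPM (log axis) of 3 Adam and 3 Mmp genes in each library of the 10 groups, with a bar at the group median and open circles for the 5 libraries that correlate least with their group. Adam8 with Dox at 24 hours (36.1 to 70.8 CPM) lies above every other library, and Mmp9 lies above its control with 5FU at 6 hours and below it at 24 hours.

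Several other Adams fell at 24 hours. Adam12 (Entrez 679837), meltrin alpha, known from fibroblasts and from fusing muscle precursors, fell in all 6 drug comparisons. At 24 hours it had a median of 43.1 CPM (21.1 to 47.9) in DMSO1 and a median of 8.05 CPM (6.38 to 8.66) with 5FU, without overlap, and the lowest control library was library 1, among the 5 named above (-2.35 ± 0.14, FDR 8.4e-22). With Ace and Dox it had a median of 22.1 CPM (18.6 to 28.2) and a median of 19.6 CPM (12.7 to 23.1) against a median of 44.4 CPM (35.9 to 48.4) in DMSO2, all below the control (-0.98 ± 0.12, FDR 3.9e-10 and -1.26 ± 0.12, FDR 1.5e-14). Adam19, meltrin beta, whose promoter is shown above, had a median of 596 CPM (561 to 671) in DMSO2 and a median of 171 CPM (164 to 202) with Dox (-1.78 ± 0.10, FDR 2.9e-25), and fell with 5FU at 24 hours with an effect of -1.46. Its effect with Ace at 24 hours, -0.29 ± 0.097, FDR 0.01, was not called. Adam33 fell with 5FU (-1.15 ± 0.12, FDR 1.1e-12) and Dox (-1.32 ± 0.11, FDR 9.4e-17) at 24 hours.

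Adam15 and Adam23 fell with 5FU and rose with Dox at 24 hours. Adam15, metargidin, had a median of 24.8 CPM (23.9 to 26.3) with 5FU (-0.33 ± 0.067, FDR 2.5e-05) and a median of 56.1 CPM (54.9 to 70.7) with Dox (0.83 ± 0.060, FDR 5.4e-20), against a median of 32.2 CPM (24.3 to 34.8) in DMSO1 and a median of 33.6 CPM (28.9 to 36.8) in DMSO2. Adam23, a member without protease activity, had a median of 2.37 CPM (1.58 to 3.32) with 5FU (-1.13 ± 0.14, FDR 5.4e-10) and a median of 12.8 CPM (8.62 to 13.6) with Dox (1.06 ± 0.12, FDR 1.4e-12), against a median of 5.45 CPM (3.51 to 5.74) in DMSO1 and a median of 5.92 CPM (5.00 to 6.26) in DMSO2. The difference between the Dox and the 5FU effect passed the test for both, at 1.16 ± 0.090, FDR 3.1e-18 and 2.18 ± 0.18, FDR 1.1e-16. Adam11, another member without protease activity, fell with Ace at 24 hours (-0.97 ± 0.14, FDR 1.2e-08), and its fall with 5FU (-0.44 ± 0.15, FDR 0.0078) lost its call in 8 of 12 fits that each left out 1 library (effects of -0.50 to -0.34).

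Adam1a (Entrez 56777) and Adam1b, the genes of the fertilin alpha subunit known from testis, are neighbours and near copies of each other, so reads may have been split between them and their single values are uncertain. With Dox at 24 hours Adam1a had a median of 4.34 CPM (3.58 to 5.25) against a median of 22.1 CPM (17.01 to 25.4) in DMSO2 (-2.29 ± 0.15, FDR 1.5e-22). Adam1b had a median of 0.241 CPM (0.170 to 0.903) against a median of 3.85 CPM (3.26 to 4.71), with an effect of -3.40 ± 0.23, FDR 2e-21, so both genes fell without overlap. With 5FU at 6 hours both rose, Adam1a from a median of 6.21 CPM (5.16 to 6.89) to a median of 9.74 CPM (7.16 to 18.7), with an effect of 0.84 ± 0.15, FDR 4.2e-06, and Adam1b by 0.74. The rise of Adam1b lost its call without library 1 of 5FU and without library 2 of DMSO1 (effects of 0.60 to 0.89 over all such fits), and the falls of Adam1a at 24 hours with 5FU (-0.45) and Ace (-0.43) lost theirs in 7 of 12 and 5 of 14 such fits (effects of -0.57 to -0.36 and -0.48 to -0.38).

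A few Adams with low counts changed too. Adam4 rose with 5FU at 24 hours, from a median of 0.658 CPM (0.406 to 1.68) to a median of 3.63 CPM (2.58 to 4.46), with an effect of 2.19 ± 0.31, FDR 5.9e-09, without overlap, and at 6 hours (1.61 ± 0.33, FDR 2.8e-05). With Dox at 6 hours it fell (-1.68 ± 0.38, FDR 9.2e-05), and with Ace and with Dox at 24 hours it did not pass. Adam32, the neighbour of Adam9, was counted 1 to 7 times in a DMSO2 library and 29 to 55 times in a Dox library at 24 hours. It reached 10 counts in these 7 Dox libraries and in no other, so it passed the minimum only through the group where it was high, and the difference is given as a description. With 5FU at 6 hours it was counted 3 to 9 times against 0 to 3 in DMSO1. Adam30 rose with 5FU at 6 hours and with Dox at both times, but the Dox calls were lost in 9 of 14 fits at 6 hours (effects of 0.78 to 1.13) and in 7 of 14 at 24 hours (effects of 0.79 to 0.97) when 1 library was left out, and both were lost without the 5 libraries named above. The call with 5FU (1.17) was lost without library 5 of 5FU (effects of 0.94 to 1.27 over all such fits). Adam22 passed the test with opposite signs in 5FU (-0.93) and Ace (0.93) at 6 hours at 2 to 31 counts per library, and the calls were lost in 8 of 12 and 7 of 13 such fits (effects of -1.11 to -0.74 and 0.80 to 1.36).

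All 3 Adamts genes that remove the amino propeptide of fibrillar procollagens fell with Dox at 24 hours. Adamts14 (Entrez 309837) fell in all 6 drug comparisons. At 24 hours it had a median of 14.4 CPM (12.8 to 15.96) in DMSO2, a median of 5.14 CPM (4.26 to 5.99) with Ace and a median of 1.69 CPM (0.767 to 3.23) with Dox, each below the one before (-1.46 ± 0.12, FDR 1.3e-15 and -2.98 ± 0.14, FDR 1e-28). At 6 hours it had a median of 8.45 CPM (6.42 to 10.98) in DMSO1 and a median of 2.897 CPM (2.15 to 3.24) with 5FU (-1.59 ± 0.15, FDR 1.8e-14). With Dox at 6 hours it fell from a median of 10.4 CPM (8.09 to 11.8) to a median of 3.63 CPM (2.52 to 3.96), with an effect of -1.60 ± 0.13, FDR 7.7e-17. Adamts2, the main procollagen N-proteinase, fell at 24 hours with 5FU (-1.01 ± 0.083, FDR 1.3e-16), Ace (-0.63 ± 0.074, FDR 1.1e-10) and Dox (-1.29 ± 0.077, FDR 4.8e-24) and in none of the 3 comparisons at 6 hours. Adamts3 fell with Dox only, at 6 hours (-1.11 ± 0.14, FDR 1.7e-10) and 24 hours (-1.66 ± 0.14, FDR 6.1e-17), and its effects with 5FU and Ace lay between -0.38 and 0.15. The difference between the Dox and 5FU effects on Adamts3 at 24 hours was -1.81 ± 0.20, FDR 1.4e-12, and that between Dox and Ace -1.76 ± 0.14, FDR 4.3e-18.

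Of the 7 Adamts genes that cut proteoglycans such as aggrecan and versican, 6 fell with 5FU at 24 hours and 3 with Ace, while with Dox 3 rose and 4 fell. The aggrecanase gene Adamts5 (Entrez 304135) fell in all 6 comparisons. It had a median of 12.01 CPM (8.20 to 14.6) in DMSO1 and a median of 2.22 CPM (1.87 to 2.62) with 5FU at 6 hours (-2.42 ± 0.14, FDR 3.4e-22), and a median of 20.2 CPM (11.7 to 23.1) and a median of 3.05 CPM (2.58 to 3.41) at 24 hours (-2.64 ± 0.14, FDR 6.3e-25). At 24 hours it had a median of 22.6 CPM (19.1 to 25.98) in DMSO2, a median of 6.83 CPM (5.98 to 8.13) with Ace (-1.69 ± 0.12, FDR 1.4e-19) and a median of 9.09 CPM (5.77 to 11.1) with Dox (-1.35 ± 0.11, FDR 4.3e-17). No drug group at 24 hours overlapped with its control. At 6 hours the effects of Ace and Dox were -1.14 and -1.61.

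Adamts1 (Entrez 79252), the neighbour of Adamts5 and an enzyme that cuts versican, went the other way with Dox. After 24 hours it had a median of 31.3 CPM (27.8 to 34.5) in DMSO2, a median of 14.6 CPM (13.9 to 19.1) with Ace and a median of 148 CPM (81.2 to 188) with Dox. Ace lay below and Dox above every control library (-1.001 ± 0.12, FDR 1.3e-10 and 2.07 ± 0.11, FDR 6e-26). With 5FU it had a median of 10.7 CPM (9.47 to 11.4) against a median of 26.7 CPM (18.2 to 29.1) in DMSO1 (-1.27 ± 0.14, FDR 1.8e-12). At 6 hours Dox had raised it (0.81 ± 0.11, FDR 5.1e-09), Ace had lowered it (-0.76 ± 0.12, FDR 1e-06) and 5FU had an effect of 0.027 that did not pass. The difference between the Dox and 5FU effects at 24 hours was 3.34 ± 0.17, FDR 3.1e-26.

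Adamts8 (Entrez 300475) also rose with Dox, from a median of 4.92 CPM (4.30 to 7.10) to a median of 28.2 CPM (16.3 to 30.8) at 24 hours (2.34 ± 0.19, FDR 5.1e-18) and from a median of 12.4 CPM (11.1 to 13.2) to a median of 25.1 CPM (14.04 to 30.2) at 6 hours (0.96 ± 0.17, FDR 1.7e-06). The groups did not overlap at either time, and the lowest Dox library was library 7 both times. The Dox levels at 6 hours lay within the range of the DMSO1 control at 6 hours. With 5FU at 6 hours it fell from a median of 38.2 CPM (10.78 to 46.9) to a median of 7.12 CPM (4.68 to 8.87), with an effect of -2.24 ± 0.20, FDR 2.1e-15. The DMSO1 control at 6 hours was itself above DMSO2 (1.40 ± 0.18, FDR 1e-08), but all 5FU libraries also lay below all DMSO2 libraries. With Ace at 6 hours it fell to a median of 5.89 CPM (5.30 to 8.26), with an effect of -0.98 ± 0.20, FDR 3.4e-05. Adamts20 rose with Dox at both times, to a median of 5.28 CPM (4.22 to 5.78) from a median of 0.873 CPM (0.481 to 1.101) at 24 hours (2.64 ± 0.19, FDR 2.1e-20), and fell with 5FU at 24 hours (-0.97 ± 0.26, FDR 0.0011).

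Adamts4 (Entrez 66015), the other major aggrecanase, fell in all comparisons but that of Dox at 6 hours, where it rose (0.37 ± 0.10, FDR 0.00082). It had a median of 9.20 CPM (7.11 to 11.1) in DMSO2 and a median of 3.87 CPM (3.28 to 4.33) with Ace at 6 hours, without overlap (-1.24 ± 0.12, FDR 1.3e-13). After 24 hours it had a median of 19.8 CPM (18.7 to 21.4) in DMSO2 and a median of 8.32 CPM (6.54 to 10.4) with Dox (-1.23 ± 0.10, FDR 8.9e-18), also without overlap, and the effects of 5FU and Ace were -1.29 and -0.71. The rise with Dox at 6 hours was not called when libraries were scaled by their totals only. Adamts9 and Adamts15 fell with 5FU and Dox at both times. With Dox at 24 hours Adamts9 had a median of 11.8 CPM (10.7 to 12.8) against a median of 43.1 CPM (40.4 to 44.4) in DMSO2 (-1.84 ± 0.090, FDR 3.1e-28), and Adamts15 had a median of 10.1 CPM (7.50 to 13.4) against a median of 34.5 CPM (27.9 to 36.8), with an effect of -1.71 ± 0.092, FDR 3.9e-26. Their effects with Ace lay between -0.24 and 0.14, none of which passed.

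**Figure D4:**
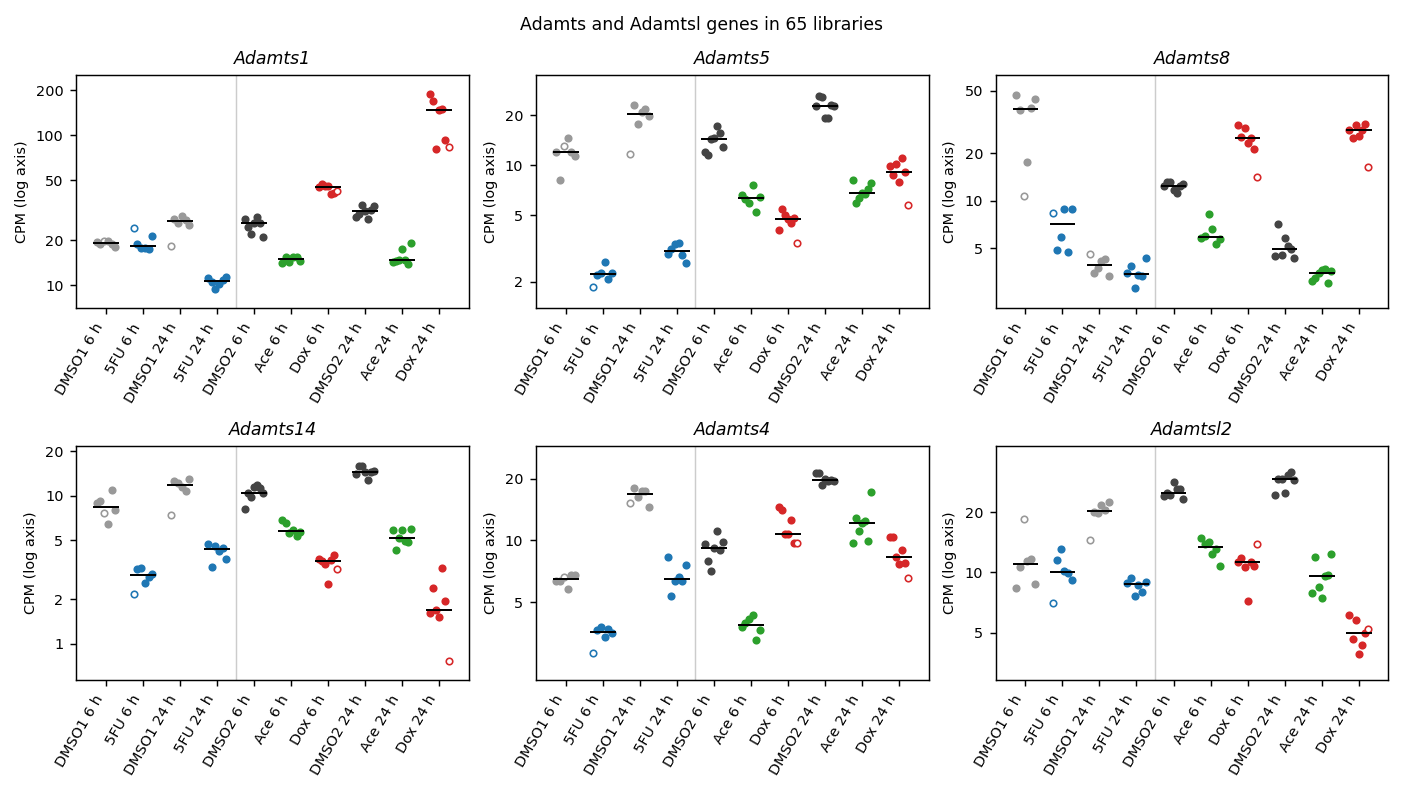
CPM (log axis) of 5 Adamts genes and Adamtsl2 in each library of the 10 groups, with a bar at the group median and open circles for the 5 libraries that correlate least with their group. Adamts1 and Adamts8 with Dox at 24 hours (81.2 to 188 CPM and 16.3 to 30.8 CPM) lie above their control, and Adamts5 lies below its control with each drug at 24 hours.

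Of the other 8 Adamts genes 5 fell with 5FU, 7 with Ace and 5 with Dox at 24 hours, where Adamts13 and Adamts17 rose. Adamts6 (Entrez 361886), which is known to act on fibrillin microfibrils, fell in all 6 comparisons, and most with Dox at 6 hours, from a median of 10.1 CPM (7.80 to 12.4) to a median of 3.29 CPM (2.28 to 3.46), with an effect of -1.70 ± 0.11, FDR 8.7e-21. At 24 hours the effects were -0.96 with 5FU, -0.77 with Ace and -0.88 with Dox. Its paralogue Adamts10 fell with Ace at 24 hours (-0.37 ± 0.072, FDR 1.3e-05) and with Dox at both times, by 0.73 on the log2 scale at 6 hours and, at 24 hours, with an effect of -1.49 ± 0.076, FDR 2.2e-27. With 5FU the effects, neither of which passed, were 0.10 and 0.064. Adamts7 and Adamts12, which cut cartilage oligomeric matrix protein, fell with 5FU at 24 hours, with effects of -0.54 and -1.72. Adamts12 also fell at 24 hours with Ace (-0.54 ± 0.10, FDR 1.7e-05) and Dox (-1.12 ± 0.11, FDR 6.3e-15), and Adamts7 with Ace (-0.63 ± 0.094, FDR 7.5e-08), whereas the effect of Dox on Adamts7 was -0.25 with an FDR of 0.011 and was not called. At 6 hours Adamts7 fell with each drug, Dox included. Its effect with 5FU there was -0.45 (FDR 0.00031), and -0.29 (FDR 0.014) without the 5 libraries named above.

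Adamts17 moved in different directions with different drugs at 24 hours. It had a median of 2.05 CPM (1.73 to 2.29) with 5FU (-1.86 ± 0.18, FDR 5.2e-14), a median of 6.15 CPM (4.58 to 8.26) with Ace (-0.55 ± 0.14, FDR 0.00088) and a median of 26.1 CPM (20.3 to 35.3) with Dox (1.54 ± 0.13, FDR 1.9e-16), against a median of 8.29 CPM (3.45 to 9.73) in DMSO1 and a median of 9.28 CPM (7.17 to 10.7) in DMSO2. The Dox libraries lay above all others of the series. Adamts19 (Entrez 361332) rose with Dox at 6 hours, from a median of 7.42 CPM (6.88 to 8.55) to a median of 22.5 CPM (8.11 to 25.6), with an effect of 1.39 ± 0.19, FDR 1.6e-09, and fell at 24 hours, to a median of 4.10 CPM (1.65 to 5.51) from a median of 7.81 CPM (6.58 to 8.73), with an effect of -1.06 ± 0.21, FDR 8.4e-06. DMSO1 at 6 hours, also without drug, had 9.01 to 27.5 CPM, so the Dox levels at 6 hours did not exceed those of that control. Adamts13, the protease of von Willebrand factor, rose with Dox at 24 hours with overlapping libraries (0.68 ± 0.19, FDR 0.00077), and no other drug comparison passed. Adamts16 reached 10 counts in 12 libraries, all of them DMSO controls, so its values are given as a description too. At 24 hours it was counted 0 to 5 times in a Dox library and 0 to 8 times in an Ace library against 7 to 23 in DMSO2, and 1 to 5 times with 5FU against 8 to 15 in DMSO1.

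The Adamts-like genes encode matrix proteins that resemble Adamts enzymes but lack the protease domain. Adamtsl2 (Entrez 311827), which binds fibrillin microfibrils, had a median of 29.1 CPM (24.5 to 31.6) in DMSO2 at 24 hours, a median of 9.55 CPM (7.43 to 12.3) with Ace (-1.57 ± 0.12, FDR 2.6e-17) and a median of 4.98 CPM (3.92 to 6.16) with Dox (-2.50 ± 0.13, FDR 7e-27), each below the one before. With 5FU it fell at 24 hours from a median of 20.4 CPM (14.6 to 22.5) to a median of 8.73 CPM (7.58 to 9.35), with an effect of -1.22 ± 0.13, FDR 5.6e-12. Adamtsl3 (Entrez 308787) fell in all 6 comparisons, and most with 5FU at 24 hours, from a median of 23.3 CPM (18.8 to 26.9) to a median of 3.67 CPM (3.28 to 4.32) without overlap (-2.61 ± 0.17, FDR 3.5e-21). Its fall with 5FU at 6 hours (-0.64 ± 0.15, FDR 0.00036) was -0.32 with an FDR of 0.026 without the 5 libraries named above. Adamtsl4 fell with 5FU (-0.55 ± 0.10, FDR 7.5e-06) and rose with Dox (0.67 ± 0.094, FDR 2.7e-09) at 24 hours. Adamtsl5 passed in 1 drug comparison, a rise with Dox at 6 hours (0.84 ± 0.14, FDR 1.4e-07). It had 27.3 to 67.9 CPM there with Dox, against 27.9 to 31.3 CPM in DMSO2 and 33.4 to 77.6 CPM in DMSO1. Without the 5 libraries it also fell at 6 hours with 5FU (-0.52, FDR 4.1e-06, against -0.36 with all libraries) and Ace (-0.27, FDR 0.0099, against -0.25). None of the 5 was in the Ace comparison, whose call changed through the fit shared by all groups.

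Adamts8, Adamts19 and Adamtsl5 varied widely within DMSO1 and Dox at 6 hours, and the same libraries were low. Adamts8 counted 10.78 CPM in library 3 of DMSO1 and 17.5 to 46.9 CPM in the others. In DMSO1 at 6 hours Adamtsl5 counted 33.4 CPM in library 3 and 67.3 to 77.6 CPM in the other 5, against 27.9 to 31.3 CPM in DMSO2. With Dox at 6 hours it counted 27.3 CPM in library 7 and 46.9 to 67.9 CPM in the other 6. Adamts19 counted 9.01 CPM in library 3 of DMSO1 and 16.9 to 27.5 CPM in the others, and with Dox 8.11 CPM in library 7 and 12.3 CPM in library 4 against 22.3 to 25.6 CPM in the rest. The summed smooth muscle and pericyte markers were 1288 CPM in library 3 of DMSO1 against 2349 to 4528 CPM in the others, and 1361 CPM in library 7 of Dox at 6 hours against 2675 to 3580 CPM. The summed cardiomyocyte markers were also lowest in these libraries, 55360 CPM in library 3 of DMSO1 against 64120 to 81120 CPM in the others and 53410 CPM in library 7 of Dox against 64050 to 71570 CPM, and the part of either marker list in these levels was not tested. The smooth muscle sum in DMSO2 at 6 hours was 1211 to 1518 CPM. In DMSO1 at 6 hours, which held no drug, the highest library of each of the 3 genes lay above all Dox libraries at 6 hours. Each of the 3 genes kept its call with Dox at 6 hours without the libraries named above. This could not put the calls to the test, as only library 7 of Dox left that comparison and it was the lowest for each gene. The effect of 5FU on Adamts19, which did not pass at either time with all libraries, was then -0.58 (FDR 0.00029) at 6 hours and 0.45 (FDR 0.0057) at 24 hours.

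**Figure D5:**
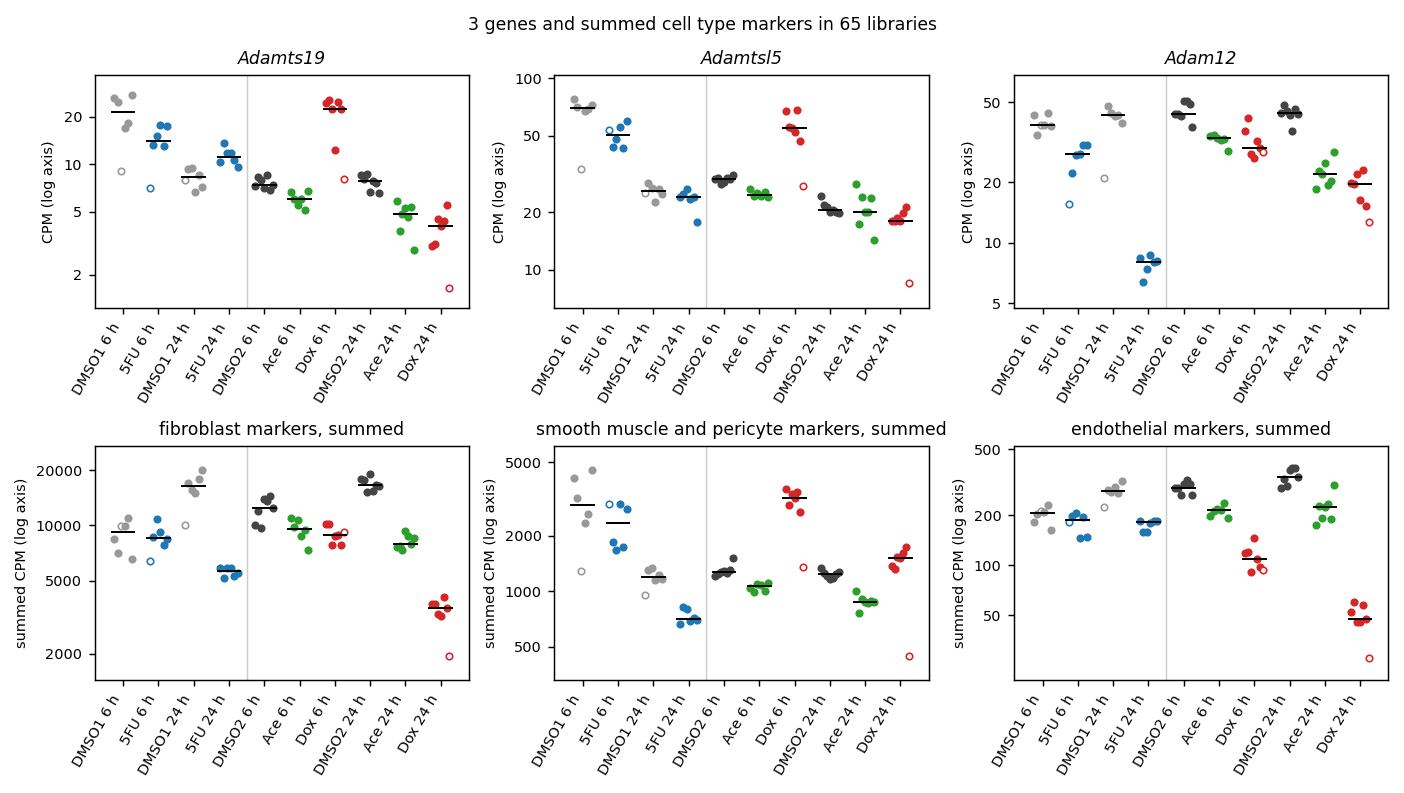
CPM (log axis) of Adamts19, Adamtsl5 and Adam12, and summed CPM of the fibroblast, smooth muscle and pericyte, and endothelial markers, in each library of the 10 groups, with a bar at the group median and open circles for the 5 libraries that correlate least with their group. Library 3 of DMSO1 and library 7 of Dox at 6 hours are low for Adamts19, Adamtsl5 and the smooth muscle sum, and the fibroblast sum is below its control with each drug at 24 hours.

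The controls changed over time in most members. Between 6 and 24 hours 36 members rose (65.5%) and 9 fell (16.4%) in the mean of the DMSO groups, with a median log2 fold change of 0.38, while 32.7% of all genes rose and 31.9% fell. The largest rises were those of Adam1b (1.59), Adamts7 (1.52), Adam1a (1.502), Mmp2 (1.41) and Mmp14 (1.28), and the largest falls those of Mmp3 (-3.07), Adamts8 (-2.16) and Timp1 (-1.51). Of the fibroblast markers 10 of 11 rose over the same interval. The controls also differed from each other at 6 hours, where 6 members were higher in DMSO1 (9.87% of all genes) and 13 were lower (6.60% of all genes), led by Adamts19 (1.42), Adamts8 (1.40) and Adamtsl5 (1.13) above and Adamtsl2 (-1.13) and Timp4 (-0.92) below. Of the fibroblast markers 8 of 11 were lower in DMSO1 there. Without the 5 libraries named above 7 members were higher and 19 lower. At 24 hours 0 members differed between the controls under edgeR's test (0.433% of all genes did), 15 had an unadjusted p below 0.05, and the DESeq2 test called 2, Mmp9 and Adamtsl2, both lower in DMSO1.

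The drug effect itself changed between 6 and 24 hours in 42 members with Dox (15 upward and 27 downward, 64.8% of all genes), 26 with 5FU (5 and 21, 39.5%) and 10 with Ace (2 and 8, 11.6%). Adam8 (2.86 ± 0.28, FDR 4.6e-14), Timp3 (1.26), Adamts1 (1.26) and Adamts8 (1.39) gained with Dox. Adam1a (-2.62), Adamts19 (-2.45) and Adamts4 (-1.60) lost the most among the members with over 100 counts on average. With 5FU the largest losses were those of Adamtsl3 (-1.97 ± 0.23, FDR 9.6e-11), Adamts17 (-1.73), Adam12 (-1.72) and Adamts12 (-1.69), and the largest gain that of Adamts8 (2.09). With Ace Mmp12 lost the most (-1.03 ± 0.19, FDR 4.7e-05), and Adamts4 (0.52) and Mmp24 (0.39) gained. The Ace count rested in part on single cultures, as it was 5 without library 1 and 6 without library 2 of Ace at 6 hours, and it was 2 upward and 4 downward with libraries scaled by their totals only. Without the 5 libraries named above the upward and downward counts were 14 and 27 with Dox, 4 and 21 with 5FU and 2 and 12 with Ace. The Ace comparison held none of these 5 libraries, so its count changed through the fit shared by all groups.

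The drugs were also compared with one another at 24 hours. The Dox and 5FU effects, each against its own control, differed in 36 members (71.1% of all genes), of which 19 were higher with Dox. Adam8 (5.34 ± 0.28, FDR 1.4e-26), Adamts20 (3.605), Adamts17 (3.40), Adamts1 (3.34) and Timp3 (2.16) were among the highest, and Adam1b (-3.41), Adam4 (-2.44) and Timp4 (-1.87) among the lowest. Dox against Ace gave 44 members (80.6% of all genes), 21 higher and 23 lower with Dox. The Ace and 5FU effects differed in 24 (37.3% of all genes), and 18 of these were higher with Ace, such as Adamtsl3 (1.78 ± 0.21, FDR 2.8e-10), Adam12 (1.37) and Adamts12 (1.18). Of the 6 that were lower with Ace, Adam4 (-2.51) was the largest.

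Genes that act upstream of the members were followed as lists. For these and the lists below, 28% of all genes rose and 27.8% fell with 5FU at 24 hours. With Ace 18.2% rose and 19.1% fell, and with Dox 40.4% rose and 41% fell. No list was tested against these shares. Of 6 genes of the plasminogen system, whose protease plasmin can activate pro-Mmps, 1 rose and 3 fell with 5FU and Ace each, and 2 rose and 2 fell with Dox at 24 hours. Plau, the urokinase gene, fell with 5FU (-1.37), Ace (-1.32) and Dox (-1.83). Of 7 proprotein convertases, some of which remove the propeptide of Adams, Adamts enzymes and membrane-type Mmps, 5 rose with Dox at 24 hours and 1 fell. Pcsk6 rose by 2.53 and Furin by 0.40, while Pcsk1 fell by 3.47 on the log2 scale. With 5FU 3 convertases fell and with Ace 1 rose. Reck, a membrane-anchored inhibitor of several Mmps, fell with 5FU (-0.52) and Dox (-0.75), and Lrp1, the receptor that clears many of these proteases, with 5FU (-1.45), Ace (-0.68) and Dox (-0.93). The list of 7 other inhibitors and inducers that these belong to had 4 members lower and 1 higher with 5FU, 1 lower with Ace, and 3 lower and 2 higher with Dox at 24 hours.

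Of 9 partners of Adam10 and Adam17, namely Frmd8 and the iRhom and TspanC8 genes, whose proteins carry these proteases to the cell surface, 7 rose with Dox at 24 hours and none fell, with a median of 1.36 against 0.0028 over all genes. Tspan33, a partner of Adam10, rose by 5.59, Frmd8, a partner of the iRhoms, by 2.04 and Rhbdf2, the gene of iRhom2, by 1.36. With 5FU and with Ace 4 rose and 1 fell at 24 hours. Of 20 genes whose products Adams shed, 16 changed with Dox at 24 hours, near the share of all genes that did (81.4%). Of these 10 rose and 6 fell. With 5FU 5 rose and 9 fell, and with Ace 3 rose and 6 fell. Those that rose with Dox included the EGF receptor ligands Hbegf (3.41), Areg (2.91) and Ereg (2.51), the chemokine Cx3cl1 (2.36) and Notch1 (2.15). Cdh2, the gene of N-cadherin, fell (-2.39).

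Of 11 proteoglycan and matrix genes whose products Adamts enzymes cut or process, 10 fell with 5FU and 10 with Ace at 24 hours, and 8 fell and 2 rose with Dox. Versican, Vcan, fell with 5FU (-1.43) and Ace (-0.62) and had an effect of 0.11 with Dox that did not pass. Aggrecan, Acan, fell with 5FU (-1.17) and Ace (-1.47) and rose with Dox (1.67), as did Comp with Dox (2.63). Procollagen genes fell with each drug, for example Col3a1, with effects of -2.07 with 5FU, -1.33 with Ace and -2.64 with Dox. Dcn, Col1a1, Col1a2 and Col3a1 of this list are also among the fibroblast markers above. Of 7 other metalloproteinases and their helpers, among them Bmp1 and the neprilysin gene Mme, 6 fell with 5FU and 3 with Ace, and 4 rose and 3 fell with Dox at 24 hours. Mme fell with 5FU (-2.25) and Ace (-1.79) and rose with Dox (1.04).

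All 7 AP-1 subunit genes rose with Dox at 24 hours, with a median of 1.83, led by Fosb (5.43), Fos (4.47) and Fosl1 (3.32). At 6 hours 4 rose and 1 fell with Dox, and 6 rose with 5FU. With 5FU at 24 hours 3 rose, and with Ace 2 rose at 6 hours and 1 rose and 1 fell at 24 hours. The 3 members with the AP-1 letters in the window above had effects with Dox at 24 hours of 1.26 for Mmp3, -0.54 for Mmp12 and -1.78 for Adam19. Those with 5FU at 6 hours were 0.42, 0.39 and -1.21, of which only that of Adam19 passed. With Dox at 6 hours Mmp12 rose and Adam19 fell. With 5FU at 24 hours Mmp12 and Adam19 fell, and with Ace Adam19 fell at 6 hours and Mmp12 at 24 hours. Mmp3 passed in none of these other comparisons.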

How the data were processed

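PolyA RNA of 65 cultures was sequenced. Reads were pseudoaligned by the authors with kallisto 0.46.0 to the Ensembl rat transcriptome, summed to Entrez genes and deposited, without normalization, as whole-number estimated counts, with genes of low counts removed. A gene that shares sequence with another can gain or lose estimated counts. The authors' fold changes and p-values were deposited in a workbook that was not used here. Columns named the group but not the replicate, and groups came from the labels.

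All genes had at least 10 counts in at least 1 library, so the filter at that count removed none. The 10 groups were fitted together with edgeR 4.0.16 (R 4.3.3, TMM scaling, quasi-likelihood test, Benjamini-Hochberg FDR over all 14554 genes), the SE was the log2 fold change divided by the square root of F, and genes were called at an FDR below 0.01. The code was tested on simulated data. Alternatives were DESeq2 1.42.0, other scalings and filters, and leaving out libraries. Symbols came from RefSeq (GRCr8) for 14009 identifiers. Library totals of 14332827 to 25738297 limit precision mainly for members with few counts. No pair of libraries agreed within sampling noise (lowest chi-square per gene 2.84 over 180 pairs within groups).

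The members and lists were chosen with earlier results of these data known. Members given in full were Timp1 to Timp4, Mmp2, Mmp14, Adam10, Adam17 and, per drug comparison, the 3 largest called increases and decreases at a mean count of at least 100. Members outside this rule were named by role. Protein sequences were not used here.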

Additional observations from a re-analysis of the deposited data

Results flagged for a closer look

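Each gene described in full was examined in each group for 1 library far from the rest (Dixon's test at the 95% level), which chance alone gives in about 1 in 20 of the 240 sets, and 19 were found. In DMSO1 at 24 hours library 1 was low for 5 genes. It had 9.84 CPM of Adam1a against 17.07 to 21.02 in the others, 21.09 CPM of Adam12 against 39.56 to 47.87, 80.29 CPM of Adam9 against 84.58 to 86.52, 14.55 CPM of Adamtsl2 against 19.85 to 22.46 and 8.27 CPM of Adamts6 against 11.52 to 12.98. Its summed fibroblast markers were 10020 CPM against 14990 to 19970, and their part was not tested. In DMSO1 at 6 hours library 3 was high, with 113.8 CPM of Adam10 against 79.41 to 90.09, 19.31 CPM of Adamtsl3 against 8.547 to 12.17 and 18.55 CPM of Adamtsl2 against 8.32 to 11.63. In 5FU at 6 hours library 1 had 18.68 CPM of Adam1a against 7.157 to 11.14, 3.802 CPM of Adamtsl3 against 7.404 to 9.417 and 54.5 CPM of Adam9 against 61.33 to 64.07. With Dox at 24 hours library 7 had 16.26 CPM of Adamts8 against 24.98 to 30.84.

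The other libraries found were not among the 5 that stood apart over all genes. In Ace at 6 hours library 3 had 106.2 CPM of Adam10 against 121 to 125.7, and library 6 had 14.55 CPM of Mmp9 against 19.91 to 21.46 and 28.66 CPM of Adam12 against 32.41 to 34.34. In Dox at 6 hours library 4 had 15.58 CPM of Adam1a against 7.684 to 9.776. In DMSO2 at 24 hours library 5 had 35.92 CPM of Adam12 against 43.33 to 48.44. In Ace at 24 hours library 7 had 17.26 CPM of Adamts4 against 9.698 to 12.9. In 5FU at 6 hours library 6 had 5.141 CPM of Adamts6 against 3.576 to 4.08.

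The drug effect differed between 24 and 6 hours, by the interaction test, in 26 members with 5FU (47.3%, all genes 39.5%). With Ace it differed in 10 (18.2%, all genes 11.6%) and with Dox in 42 (76.4%, all genes 64.8%). The effect was called at both times with opposite signs for 4 members with 5FU, where the change was -0.5913 for Adam15, -1.2875 for Adam1a, -1.5803 for Mmp9 and -0.6454 for Timp2 on the log2 scale. The same held with Dox for Adam9 (-0.8583), Adamts19 (-2.4489), Adamts4 (-1.598), Mmp12 (-1.1103), Mmp2 (-1.187), Mmp28 (0.7694) and Mmp9 (-1.421). At 24 hours the effects of Dox and 5FU differed in 36 members (65.5%, all genes 71.1%), a share below that of all genes. Those of Dox and Ace differed in 44 (80%, all genes 80.6%), near the share of all genes. Those of Ace and 5FU differed in 24 (43.6%, all genes 37.3%).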

How the results depend on the processing

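No call of a member changed direction under any alternative. With a log2 fold change of at least 1 also required, the members called were 18 (5FU) and 7 (Ace) at 24 hours, 8 (5FU), 3 (Ace) and 11 (Dox) at 6 hours, 15, 1 and 25 for the change of the 5FU, Ace and Dox effects over time, 13 for time in the controls, 4 for DMSO1 against DMSO2 at 6 hours, 22 for Dox against 5FU, 21 for Dox against Ace and 10 for Ace against 5FU. The share of all genes that met this stricter threshold was not counted, so these counts show only how the calls depend on it. The change of the Ace effect, 10 members, was 16 with the compared groups alone, 17 at an FDR below 0.1 and 6 with totals only, and ran from 5 to 10 when 1 library was left out. DMSO1 against DMSO2 gave 0 members at 24 hours, 2 with DESeq2, 4 at an FDR below 0.1 and 0 to 2 with 1 library left out, and at 6 hours 29 at an FDR below 0.1. The other counts, taken over both directions, were within 1.5 times the main count under all alternatives. The split by direction was not held to that limit. With totals only 2 members rose and 15 fell with Ace at 6 hours (4 and 15 in the main fit). With Dox at 6 hours 12 rose and 23 fell (16 and 21 in the main fit). The alternative without the 5 libraries that stood apart was chosen after seeing the data. Over the fits that each left out 1 library, 224 of 15180 member results lost the call and 90 gained it, and 25 lost and 30 gained it with the compared groups alone. Scaling by totals moved the median of all genes with Dox at 6 hours to -0.15 from 0.003, and that of the change of the Dox effect to 0.27 from 0.065. Depth limits the members with few counts, of which Adamts16, Adam32, Mmp3, Adam30, Adam22 and Adam4 had means below 20 counts per library. No paired analysis was possible because the columns of the table carry no replicate numbers.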
